A study of Mus musculus with 2 samples.

Results

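The subject is a group of 6 transcription factor genes of blood vessel lining, the SoxF genes Sox7, Sox17 and Sox18 and the ETS genes Erg, Fli1 and Ets1, chosen by name as known regulators of endothelium. All 6 were found among the 31053 genes of the count tables. They were followed in the aorta-gonads-mesonephros (AGM) of mouse embryos at embryonic day 11, a region that surrounds the dorsal aorta and gives rise to the first blood stem cells. The WT library came from PDGFRB +/+ embryos and the KO library from PDGFRB -/- embryos, whose germline allele takes the platelet-derived growth factor receptor beta from every cell of the body and not from 1 cell type. The KO line was kept in heterozygotes with a C57BL/6J background, and how many embryos went into each library is not given in the sources used here. Each genotype gave 1 library of single-cell RNA-seq, loaded for 7000 cells, so there is no replicate and no test, and genotype and library cannot be told apart. The sex of the embryos cannot be told apart from them either, since Xist, made in females, stood at 793 CPM in WT against 0.415 CPM in KO, and 4 Y-linked genes at 0.0266 and 163 CPM. CPM is the number of UMIs (counted RNA molecules) of a gene per 1000000 UMIs of all genes in the cells added up.

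SoxF proteins are HMG-box transcription factors that bind DNA beside other regulators and act partly in each other's place in vessels, where Sox17 is known for arteries and for the endothelium that forms blood, and Sox18 for lymphatic vessels. ETS factors bind sites with the core GGAA, which are found in nearly all known endothelial enhancers. Erg and Fli1 maintain endothelial identity, Fli1 also works in blood cells and neural crest, and Ets1 is known from endothelium, neural crest and migrating mesenchyme.

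Barcodes with 2000 or more UMIs and a mitochondrial share under 10% were kept as cells, 8253 in WT with a median of 13321 UMIs and 8165 in KO with a median of 12391. The libraries shared 20 barcodes, with 1 of them among the endothelial-like cells of each. Cells were put into 13 classes by marker genes, none of which is a member. Endothelial-like cells needed UMIs of at least 3 of 6 genes (Pecam1, Cdh5, Tie1, Emcn, Esam and Cldn5) that summed to 500 CPM or more in the cell. They numbered 84 in WT, 1.02% of cells, and 81 in KO, 0.992%, after 23 and 11 barcodes that also passed the gate of another class had been set aside. Their median depth was 20080 UMIs in WT and 33456 in KO. All 6 endothelial markers were found in both libraries, with a summed level of 2820 CPM in WT against 2938 CPM in KO. The UMIs of Pdgfrb itself amounted to 43.1 CPM over all WT cells and 7.09 CPM over all KO cells, where it was found in 33.8% and 9.81% of cells. The paper took KO cells with detected Pdgfrb out of its data, while here they were kept except where named. Among the endothelial-like cells, 3 in WT and none in KO had a Pdgfrb UMI, where 0 of 81 cells allows a share of up to 4.45%. The 95% intervals in parentheses cover counting error alone and leave out the differences between cells and between embryos.

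Of the UMIs in classed cells, endothelial-like cells held 93.2% to 96.2% for each SoxF gene in either library, but 33.3% in WT and 31.3% in KO for Erg, 8.22% and 10.3% for Fli1 and 12.5% and 18.9% for Ets1. In WT, 6 of 6 members stood at least 4-fold higher in endothelial-like cells than in the other classed cells together, and in KO 5 of 6, where 4.59% of genes with 20 or more UMIs did so in WT and 4.62% in KO. Fli1 was the member under that fold in KO, at 3.66-fold (3.32 to 4.03) beside 4.33-fold (3.86 to 4.85) in WT. Its endothelial-like level was 123 CPM in both libraries, while the other classed cells held 28.4 CPM in WT and 33.7 CPM in KO. The mix of those cells differed, with 671 erythroid-like and 755 sclerotome-like cells in WT against 205 and 1248 in KO. The part of that mix in the fold was not tested.

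Sox7 (ENSMUSG00000063060, chromosome 14, 63943673 to 63950732, plus strand, GRCm38 as are all positions here) encodes a factor of early endothelial and hemogenic specification. It stood at 80.1 CPM (69.6 to 91.6) in WT against 76.3 CPM (67.8 to 85.7) in KO endothelial-like cells. In the other classed cells it came to 12 UMIs in 6423 WT cells, 0.0937 CPM, which makes the endothelial level 854-fold higher (479 to 1680). In KO the ratio was 706-fold (407 to 1343). Its UMIs appeared in 65.5% of the endothelial-like cells of WT and 70.4% of those of KO, whose depth was greater. Each cell was then cut at random to 2000 UMIs. A Sox7 UMI remained in 17.9% (10.4 to 27.7) of WT and 6.17% (2.03 to 13.8) of KO cells. The order of the shares was then the reverse, but these intervals overlap. The random draw was not repeated and left 20 Sox7 UMIs in WT and 5 in KO. Whether the order turned with depth was not tested.

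Sox17 (ENSMUSG00000025902, chromosome 1, 4490931 to 4497354, minus strand) stood at 126 CPM (113 to 140.0) in WT against 99.4 CPM (89.6 to 110.0) in KO endothelial-like cells. The level was 767-fold higher (494 to 1256) than in the other classed cells of WT and 797-fold higher (477 to 1438) than in those of KO. A UMI of Sox17 was found in 76.2% of the WT and 76.5% of the KO endothelial-like cells, and in 21.4% and 20.99% of them at 2000 UMIs per cell.

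Sox18 (ENSMUSG00000046470, chromosome 2, 181669836 to 181671640, minus strand) stood at 228 CPM (210 to 247) in WT against 103 CPM (93.4 to 114) in KO endothelial-like cells, intervals that do not overlap. Relative to the other classed cells, this was a 663-fold (488 to 922) excess in WT and a 444-fold (302 to 677) excess in KO. Of the endothelial-like cells, 86.9% had a Sox18 UMI in WT and 81.5% in KO. At 2000 UMIs per cell the shares were 32.1% and 22.2%.

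In the other classes of 30 or more cells, no SoxF gene stood above 0.884 CPM in either library. Macrophage-like, Schwann precursor-like, neuron-like and coelomic-like cells held at most 2 UMIs of each SoxF gene in either library. In Schwann precursor-like cells of WT, none of the 3 genes had a UMI in 118 cells, a floor of 0.978 CPM at 3 UMIs. Mural cells wrap vessels, but the gate for mural-like cells does not show where a cell lay. The mural-like cells held 11 Sox18 UMIs in 548 WT cells, 0.884 CPM (0.441 to 1.58), and 5 in 331 KO cells, 0.599 CPM (0.194 to 1.40). Barcodes left out of the classes because they passed the gates of several held more, and not equally in both libraries. They came to 125 UMIs of Sox7, 125 of Sox17 and 246 of Sox18 in 249 such barcodes of WT, against 31, 91 and 52 UMIs in 196 of KO, for Sox18 26.1 CPM in WT and 6.85 CPM in KO. With the barcodes among them that passed the endothelial gate put back, the log2 ratio of KO over WT in endothelial-like cells, described further on, was -0.28 for Sox7, -0.17 for Sox17 and -1.14 for Sox18. Barcodes with at most 100 UMIs, taken as free RNA, held 5.64 CPM of Sox18 in WT and 1.70 CPM in KO.

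**Figure D1:**
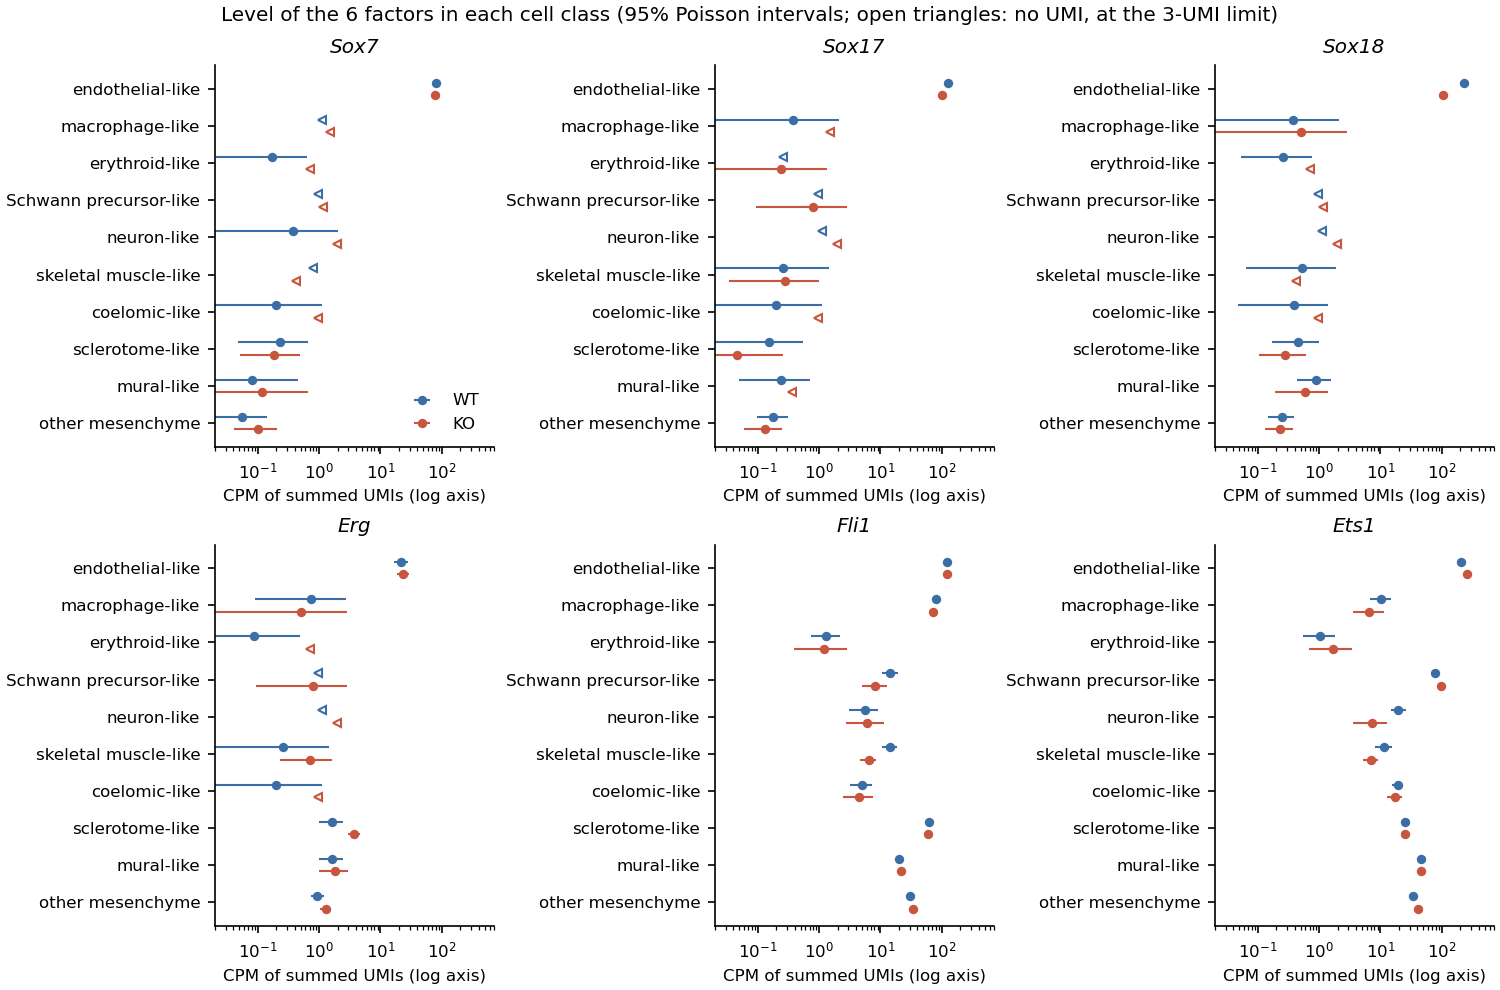
CPM of each factor (log axis) in the 10 cell classes with 30 or more cells in both libraries, WT in blue and KO in red, with 95% Poisson intervals; open triangles mark classes without a UMI, drawn at the value 3 UMIs would give. The 3 SoxF panels show 1 high class, while Fli1 stays above 60 CPM in WT macrophage-like and sclerotome-like cells and Ets1 above 70 CPM in WT Schwann precursor-like cells.

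Erg (ENSMUSG00000040732, chromosome 16, 95359169 to 95586593, minus strand) was the most sparsely counted member, with 58 UMIs in WT and 88 in KO endothelial-like cells. These amount to 21.9 CPM (16.6 to 28.3) and 23.3 CPM (18.7 to 28.7). The ratio to other classed cells was 24.2-fold (17.3 to 33.4) in WT and 14.5-fold (11.2 to 18.8) in KO. Of the UMIs in all kept cells, those of several or no class included, endothelial-like cells held 28.3% for Erg in WT and 27.4% in KO. For Sox7 the shares were 60.6% and 85.2%, for Sox17 68.0% and 75.9% and for Sox18 66.0% and 81.4%. Barcodes of several classes, described above, held more UMIs of each SoxF gene in WT than in KO. The second class for Erg was mural-like cells in WT at 1.61 CPM (0.982 to 2.48) and sclerotome-like cells, which form the cartilage of the spine, in KO at 3.76 CPM (2.98 to 4.68), while in WT the intervals of both classes overlapped.

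The promoter table used here, from RefSeq (GRCm38.p6), holds windows of 250 bases before to 50 after a start site, and 1 of the 6 members, Erg, was matched in it, at 3 start sites. They were searched on both strands for a SOX motif, ACAATG, and an ETS motif, CCGGAAG or CAGGAAG, letters that do not overlap between the motifs. Of 32851 windows of this length, 12.6% held the SOX motif, 20.9% the ETS motif and 2.05% both. The window of an internal Erg start held both, while the other windows of Erg held neither. Among 20 windows of 18 genes from the endothelial markers and the list of known targets described further on, 1 held the SOX motif (5%) and 6 the ETS motif (30%). The Erg window is shown with those of Notch4, the 1 target window that held both, and Robo4, whose level is described with the targets. The capitals mark the motif matches, in either direction, which are matches of letters and say nothing of binding.
Erg (chr16:95459299-95459598, minus strand, SOX match 121 and ETS match 40 bases before the start): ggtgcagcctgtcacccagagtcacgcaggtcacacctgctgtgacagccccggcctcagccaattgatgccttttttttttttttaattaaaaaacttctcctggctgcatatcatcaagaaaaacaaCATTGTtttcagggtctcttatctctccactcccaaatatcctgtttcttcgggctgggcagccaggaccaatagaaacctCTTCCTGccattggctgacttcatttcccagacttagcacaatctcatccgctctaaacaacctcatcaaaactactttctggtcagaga
Notch4 (chr17:34564045-34564344, plus strand, ETS match 245 and SOX match 11 bases before the start): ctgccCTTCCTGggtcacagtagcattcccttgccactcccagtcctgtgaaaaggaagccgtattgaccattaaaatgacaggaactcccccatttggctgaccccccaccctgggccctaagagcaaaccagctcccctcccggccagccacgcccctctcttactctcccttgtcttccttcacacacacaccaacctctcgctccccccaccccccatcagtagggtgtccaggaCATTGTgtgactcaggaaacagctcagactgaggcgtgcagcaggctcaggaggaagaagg
Robo4 (chr9:37401722-37402021, plus strand, ETS match 50 bases before the start): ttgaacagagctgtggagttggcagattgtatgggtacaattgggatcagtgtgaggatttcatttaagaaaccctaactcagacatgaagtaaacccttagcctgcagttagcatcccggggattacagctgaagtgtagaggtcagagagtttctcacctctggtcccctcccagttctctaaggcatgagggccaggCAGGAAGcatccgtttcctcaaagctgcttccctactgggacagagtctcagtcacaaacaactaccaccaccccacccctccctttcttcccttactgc

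Fli1 (ENSMUSG00000016087, chromosome 9, 32422204 to 32542861, minus strand) stood at 123 CPM in the endothelial-like cells of WT (110.1 to 137) and of KO (112 to 135). Macrophage-like cells came next, at 78.9 CPM (68.6 to 90.3) in 138 WT cells and 72.3 CPM (60.9 to 85.3) in 119 KO cells. Sclerotome-like cells followed with 62.5 CPM (58.2 to 66.9) in WT against 59.6 CPM (56.4 to 63.0) in KO. The order of the 10 classes was the same in both libraries, going on with other mesenchyme, mural-like, Schwann precursor-like, skeletal muscle-like, neuron-like, coelomic-like and erythroid-like cells. In WT the intervals of mural-like (19.7 CPM), Schwann precursor-like (14.3 CPM) and skeletal muscle-like cells (14.2 CPM) overlapped from each to the next, as did those of neuron-like and coelomic-like cells (5.56 and 4.92 CPM). In KO those of macrophage-like and sclerotome-like cells overlapped, and those of each pair of neighbours from Schwann precursor-like cells downwards. Erythroid-like cells held 1.31 CPM in WT against 1.20 CPM in KO, with a Fli1 UMI in 2.09% and 1.95% of cells, far under the 68.8% and 58.0% of macrophage-like cells, whose median depths of 18783.5 and 16441 UMIs stood beside 16275 and 19297 in erythroid-like cells. Among 8 megakaryocyte-like cells in each library, too few for the order, Fli1 reached 159 CPM (79.6 to 285) in WT against 156 CPM (112 to 211) in KO. Fli1 is among the factors that platelet-forming cells are known to need.

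Ets1 (ENSMUSG00000032035, chromosome 9, 32636221 to 32757820, plus strand) lies 93.4 kb from Fli1 in the genome. It stood at 207 CPM (190.0 to 225) in WT against 253 CPM (238 to 270) in KO endothelial-like cells. The second class was not the same as for Fli1: Schwann precursor-like cells, which derive from neural crest, held 78.6 CPM (68.9 to 89.1) in WT against 95.1 CPM (83.5 to 108) in KO. Mural-like cells followed with 44.9 CPM (41.3 to 48.8) and 46.2 CPM (41.7 to 51.1), then other mesenchyme with 34.0 and 40.3 CPM and sclerotome-like cells with 25.1 and 25.4 CPM. The intervals of sclerotome-like, neuron-like (19.7 CPM) and coelomic-like cells (19.3 CPM) overlapped from each to the next in WT, and in KO the order of the last pair was the reverse, with overlapping intervals. Macrophage-like cells were low, at 10.1 CPM (6.65 to 14.7) in WT against 6.62 CPM (3.53 to 11.3) in KO. A UMI of Ets1 was found in 79.7% of the WT Schwann precursor-like cells and in 1.64% of the WT erythroid-like cells. The antisense genes that overlap Fli1 and Ets1 (Gm27201 and Gm27240) had 1 UMI each in the whole WT library and 2 each in KO.

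Over the 20 combinations of class and library, the SoxF genes ran close to each other, with Pearson correlations of log2(CPM + 1) from 0.985 to 0.990. Erg correlated with them at 0.888 to 0.906, Ets1 at 0.618 to 0.628 and Fli1 at 0.518 to 0.571, while Fli1 and Ets1 correlated at 0.605. The points share libraries and differ in depth, so these values describe the pattern and carry no test. For the SoxF genes only the endothelial-like points are high, with no other class above 0.884 CPM. Any gene nearly confined to that class would give values close to theirs. The genes most alike were sought among 13547 with 200 or more UMIs. The marker genes that set the classes, those of endothelium included, were not among the 13547. Those most like Sox7 were Gpihbp1 (0.997), which anchors lipoprotein lipase on endothelium, Robo4 (0.994) and Ptprb (0.994), a phosphatase of endothelial receptors. Sox17 was most like Gpihbp1 (0.993), Clec1a (0.992) and Robo4 (0.990), and Sox18 most like Ccm2l (0.991), Myct1 (0.990) and Exoc3l2 (0.990). Erg came closest to Cd34 (0.947), Adcy4 (0.942) and Col15a1 (0.928). For Fli1 the most alike were Itpr2 (0.935), a calcium channel of internal stores, Galt (0.917) and Tgfbr2 (0.917), a receptor of TGF-β, and for Ets1 they were Fam129b (0.927), Gm10638 (0.927) and Dcbld1 (0.923).

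How many of the factors were found in the same endothelial-like cell depended on its depth. With all UMIs counted, all 3 SoxF genes had a UMI in 45 of 84 WT cells (53.6%) and 45 of 81 KO cells (55.6%), and 6 cells of each library had none. All 3 ETS members were found together in 31 WT cells (36.9%) and 36 KO cells (44.4%). Every one of the 6 members was present in 23 WT cells and 27 KO cells. At 2000 UMIs per cell, all 3 SoxF genes were found in 4 WT cells (4.76%) and no KO cell, a floor of 3.70% at 3 cells. All 3 ETS members were then found in no WT cell, a floor of 3.57% at 3 cells, and in 2 KO cells (2.47%). All 6 members were found in no cell of either library.

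The levels of single cells spread widely. Sox18 ran from 0 in 11 of 84 WT cells to 746 CPM, with a median of 190.0 CPM, and from 0 in 15 of 81 KO cells to 674 CPM, with a median of 80.9 CPM. The KO range lies within that of WT, and the WT quartiles of 86.0 and 330 CPM lie above those of KO at 42.4 and 158 CPM. The highest Sox18 values came from cells of 4020 UMIs in WT and 4452 UMIs in KO. The median depths of the class were 20080 and 33456 UMIs. The 11 WT cells at 0 had 7218 UMIs or fewer, while the 15 KO cells at 0 had from 2175 to 98882 UMIs. The part of depth in the spread between cells was not tested. Ets1 had a median of 170 CPM in WT, with 18 cells at 0 and a highest of 527 CPM, and of 243 CPM in KO, with 7 cells at 0 and a highest of 1757 CPM. Sox17 had medians of 89.2 and 65.6 CPM, Fli1 of 87.0 and 110.0 CPM and Sox7 of 54.2 and 48.1 CPM. Erg was at 0 in 50 WT and 40 KO cells.

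**Figure D2:**
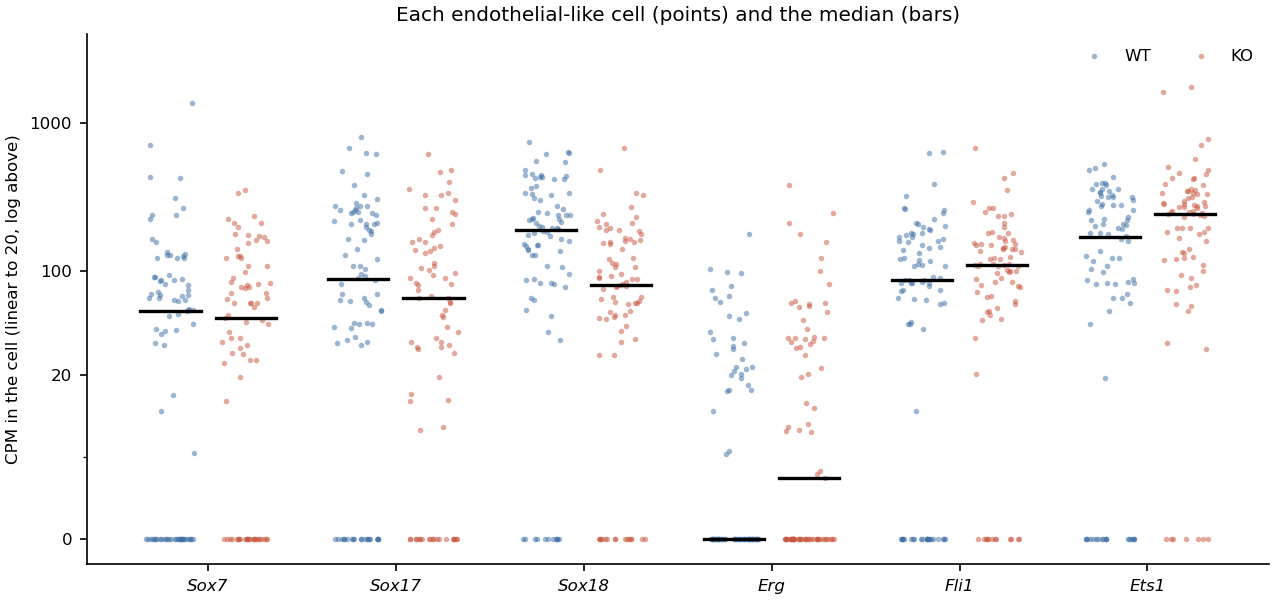
CPM of the 6 factors in each of the 84 WT (blue) and 81 KO (red) endothelial-like cells, on an axis that is linear to 20 CPM and logarithmic above, with black bars at the medians. The median of Sox18 lies at 190.0 CPM in WT against 80.9 CPM in KO, while the KO points, up to 674 CPM, lie within the WT range, up to 746 CPM. Both of these highest points are shallow cells, of 4452 UMIs in KO and 4020 UMIs in WT.

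Between the libraries, the interval of the Sox18 ratio overlapped that of no other member. Its level in KO endothelial-like cells was lower than in WT by a log2 ratio of -1.14 (-1.33 to -0.95), from 603 WT and 390 KO UMIs. It was the 1 member of 6 past 1.5-fold lower, where 7.51% of 10227 genes with 20 or more UMIs were past that fold, and none of the members was past 1.5-fold higher, where 5.25% of genes were. The share of 1 in 6 members past the lower fold is a count of 1 gene. Sox17 had a log2 ratio of -0.34 (-0.56 to -0.12) and Sox7 of -0.07 (-0.33 to 0.19). Among the ETS members, Ets1 was higher in KO by 0.29 (0.14 to 0.45), Erg had a ratio of 0.09 (-0.40 to 0.59) and Fli1 of 0.00 (-0.21 to 0.21), with UMIs of 326 in WT and 465 in KO. The median of the 6 ratios was -0.03, beside 0.01 over all 10227 genes.

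The endothelial markers themselves differed less than Sox18, but their UMIs set the gate in both libraries, so their levels are not independent of it. The 6 log2 ratios of the markers ran from -0.07 for Tie1 to 0.13 for Pecam1, with 0.05 for Cdh5, the cadherin of endothelial junctions. None was past 1.5-fold in either direction, where 7.51% of all genes were lower and 5.25% higher. Markers of other cells in the endothelial-like cells were not equal between libraries. The 6 neuron genes had the highest sum, 238 CPM in WT and 178 CPM in KO, nearly all of it from Stmn2, a tubulin-binding protein, with 235 CPM in 43 WT cells and 177 CPM in 41 KO cells, while Elavl3 and Tubb3 were at 0 in both. The 6 erythroid genes summed to 0.378 CPM in WT, with 5 at 0, and 3.98 CPM in KO, with Hemgn at 0. The 6 mural genes summed to 20.02 and 12.5 CPM, with Myh11 and Cnn1 at 0 in both, the 6 genes of other mesenchyme to 59.3 and 40.0 CPM, and the 5 sclerotome genes to 4.91 and 22.8 CPM. Their part in the ratios was not tested. With the free RNA subtracted, estimated at 1.66% of the endothelial UMIs of WT and 6.18% of those of KO, Sox18 had a ratio of -1.07 and Ets1 of 0.35. The estimate rests on hemoglobin UMIs. For the other classed cells but erythroid-like ones it was 1.08% in WT and 0.774% in KO. Whether the higher value in KO endothelial-like cells is free RNA was not tested.

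Sox18 was lower in KO in each part of the endothelium that could be set apart. Cells with more arterial than venous marker UMIs, and at least 2 of 6 arterial genes, are called arterial, and venous cells were set apart the same way from 4 venous genes. Arterial cells numbered 27 in WT, 32.1% (22.4 to 43.2) of the class, and 17 in KO, 20.99% (12.7 to 31.5), and venous cells 50 in WT and 56 in KO. Sox18 stood at 316 CPM (276 to 361) in the arterial cells of WT and 162 CPM (132 to 197) in those of KO, a log2 ratio of -0.96 (-1.31 to -0.62). In venous cells it stood at 195 CPM (176 to 216) in WT against 91.3 CPM (81.0 to 103) in KO, a ratio of -1.09 (-1.32 to -0.87). The intervals of the arterial and the venous ratio overlap.

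Kit, a receptor that marks the clusters of blood-forming cells on the aortic wall, had a UMI in 38 WT and 42 KO endothelial-like cells, which were the deeper cells in both libraries (median 44972.5 and 54043 UMIs, against 11634 and 16428 without Kit). The Sox18 ratio was -0.97 (-1.21 to -0.74) with a Kit UMI and -1.41 (-1.73 to -1.10) without. By depth, the Sox18 ratio was below 0 in each range: -0.76 (-1.85 to 0.22) in cells of 2000 to 10000 UMIs, of which there were 25 in WT and 14 in KO, -1.11 (-1.62 to -0.61) from 10000 to 40000 UMIs and -1.18 (-1.39 to -0.97) above. The first of these intervals includes 0. Cells with a Prox1 UMI, a regulator of lymphatic identity, held 190.1 CPM (161 to 223) of Sox18 in 18 WT cells and 108 CPM (89.7 to 130) in 19 KO cells.

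**Figure D3:**
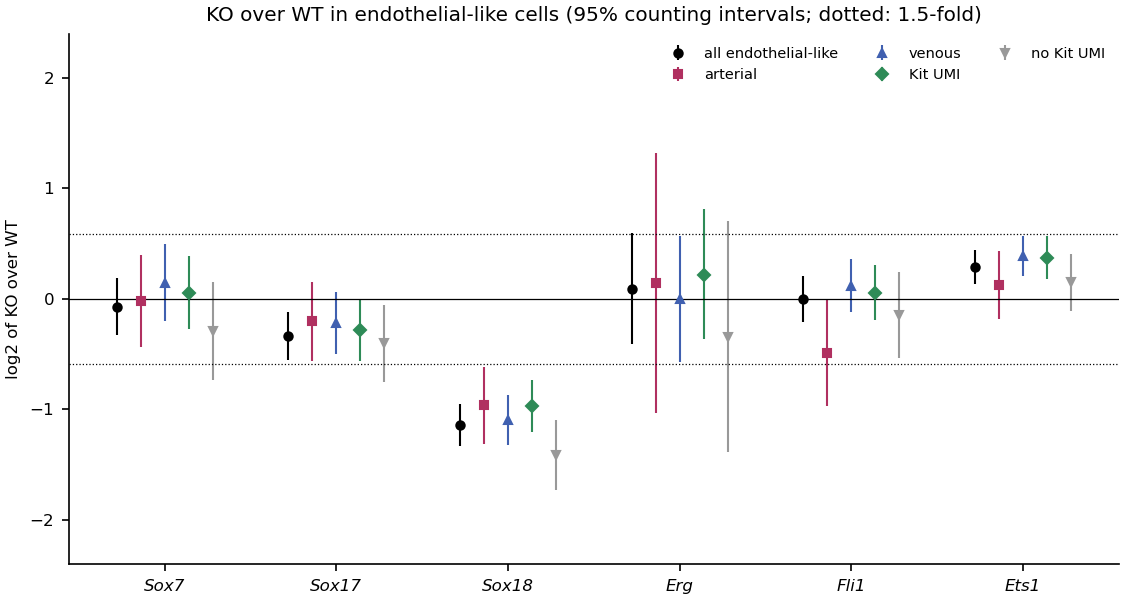
Log2 of KO over WT for each factor in all endothelial-like cells (black) and in arterial, venous, cells with and cells without a Kit UMI, with 95% counting intervals; dotted lines mark 1.5-fold. The 5 Sox18 values lie between -1.41 and -0.96, and the 5 Sox7 values lie on both sides of 0, from -0.29 to 0.14.

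The ratios of the other members also varied between these parts. Ets1 had a ratio of 0.39 (0.20 to 0.57) in venous and 0.13 (-0.18 to 0.44) in arterial cells. In the 14 KO cells of 2000 to 10000 UMIs it reached 511 CPM (367 to 694), against 120 CPM (68.4 to 194) in the 25 WT cells, but 2 of the 14 cells held 26 of their 41 Ets1 UMIs. Without these 2, a step chosen after the values were seen, the other 12 cells stood at 232 CPM (130 to 382), which overlaps the WT interval. In cells of 40000 UMIs or more the levels were 252 CPM in KO and 220.4 CPM in WT, a ratio of 0.19 (0.02 to 0.37). As the mean of each cell's CPM, which gives shallow cells equal weight, the Ets1 ratio was 0.61, or 0.41 without the same 2 cells, and the Erg ratio 0.82. Sox17 had a ratio of -0.20 (-0.57 to 0.16) in arterial and -0.22 (-0.50 to 0.06) in venous cells. It had -0.28 with a Kit UMI and -0.40 without. By depth, Sox17 had a ratio of -0.89 (-1.45 to -0.35) in cells of 10000 to 40000 UMIs and a ratio of -0.21 (-0.46 to 0.04) in the deepest cells. Fli1 had a ratio of -0.49 (-0.97 to -0.01) in arterial and 0.12 (-0.12 to 0.36) in venous cells. The sign of the Sox7 ratio differed with the mitochondrial share: with a share under 5%, which left 30 WT and 24 KO cells, its ratio was 0.72 (0.09 to 1.38), with 28 UMIs in WT, and from 5% to 10% it was -0.21 (-0.51 to 0.08).

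Arterial cells held more of all 3 SoxF genes than venous cells, in both libraries. Of the genes that set arterial cells apart, Gja5, Gja4, Dll4, Hey1 and Efnb2 are among the known targets described further on. The gate and the SoxF levels may therefore not be independent. Sox7 stood at 147 CPM (120 to 178) in arterial and 56.6 CPM (46.4 to 68.3) in venous cells of WT, a log2 ratio of 1.37 (0.97 to 1.78), and in KO the ratio was 1.21 (0.84 to 1.58). For Sox17 the ratios were 1.15 (0.83 to 1.47) and 1.17 (0.84 to 1.49), from 212 and 95.4 CPM in WT and 184 and 81.9 CPM in KO. Sox18 had 0.70 (0.45 to 0.94) and 0.83 (0.49 to 1.16).

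The ETS members did not share that order. Ets1 was higher in arterial cells by 0.42 (0.15 to 0.68) in WT and had 0.16 (-0.08 to 0.40) in KO. Fli1 had 0.19 (-0.16 to 0.54) in WT and -0.41 (-0.82 to -0.02) in KO, and Erg -0.21 (-1.19 to 0.69) and -0.06 (-1.002 to 0.78), from 14 arterial UMIs in each library. Arterial cells were shallower than venous cells, at median depths of 12623 and 31011 UMIs in WT and 26673 and 51022.5 UMIs in KO.

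**Figure D4:**
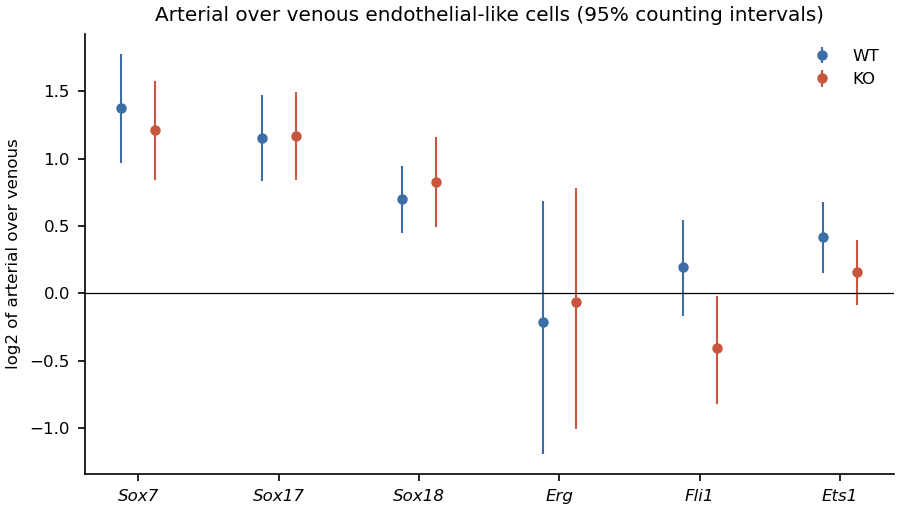
Log2 of the arterial over the venous level of each factor among endothelial-like cells, in WT (blue) and KO (red), with 95% counting intervals. The SoxF values lie between 0.70 and 1.37 in both libraries, and those of Erg and Fli1 between -0.41 and 0.19.

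Cells with a Pecam1 and a Kit UMI, the pair that marks the intra-aortic clusters, were split by Ptprc, the pan-leukocyte gene CD45. These cells were taken without regard to class, so they overlap the endothelial-like cells with a Kit UMI and include barcodes of several classes. In WT those without a Ptprc UMI held 226 Sox7 UMIs, where all endothelial-like cells held 212. Without a Ptprc UMI there were 55 such cells in WT and 50 in KO. They held 95.5 CPM of Sox17 (84.7 to 107) in WT against 82.6 CPM (72.9 to 93.3) in KO, and 179 CPM of Sox18 (164 to 195) against 93.3 CPM (83.0 to 105). With a Ptprc UMI there were 9 cells in WT and 5 in KO. In the 9 WT cells the SoxF genes came to 8 UMIs of Sox7, 11 of Sox17 and 13 of Sox18, each in 22.2% of cells, and in the 5 KO cells to none, a floor of 20.6 CPM at 3 UMIs. Fli1 stood at 43.3 CPM (21.6 to 77.5) in the WT cells and 54.8 CPM (23.7 to 108) in the KO cells of this kind. Among endothelial-like cells, those with a Runx1 UMI, the factor that starts blood formation, numbered 5 in WT and 6 in KO. They held 38.4 CPM of Sox17 (18.4 to 70.5) in WT against 49.7 CPM (32.1 to 73.3) in KO, and 215 CPM of Sox18 (162 to 279) in WT against 87.4 CPM (63.5 to 117) in KO. Only 1 endothelial-like cell in WT and 1 in KO had UMIs of 2 or more blood-forming genes (Runx1, Gfi1, Myb, Ptprc, Itga2b and Spn).

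Outside the endothelium the ETS members could be compared where cells were many. In other mesenchyme, 3795 WT and 3786 KO cells, Ets1 was higher in KO by a log2 ratio of 0.25 (0.17 to 0.32), Fli1 by 0.15 (0.06 to 0.23), and Erg had 0.44 (-0.03 to 0.92), beside a median of 0.03 over 15672 genes. Erg in sclerotome-like cells rested on 21 UMIs in 755 WT cells, 1.61 CPM (0.995 to 2.46), and 80 UMIs in 1248 KO cells, a ratio of 1.23 (0.52 to 1.99). The 5 sclerotome markers summed to 1500 CPM in the WT and 1677 CPM in the KO cells of that class, and the 6 endothelial markers to 1.99 and 2.82 CPM, and their part in the Erg ratio was not tested. Ets1 in mural-like cells had a ratio of 0.04 (-0.15 to 0.23) and Fli1 one of 0.14 (-0.15 to 0.42). In macrophage-like cells Fli1 had -0.12 (-0.44 to 0.19). Smaller classes gave further differences for these genes, such as Fli1 in skeletal muscle-like cells at -1.14 (-1.74 to -0.54) and Ets1 in neuron-like cells at -1.44 (-2.52 to -0.48), the latter from 53 WT and 11 KO UMIs at median depths of 18744 and 8511 UMIs.

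The remaining SOX genes give the setting of the SoxF genes. Of 16 measured, 7 had 20 or more UMIs in endothelial-like cells. None of these was past 1.5-fold in KO against WT in either direction, where 7.51% of all genes were lower and 5.25% higher. The 5 with the most UMIs there in WT were Sox4 (337 CPM in WT against 330 CPM in KO), Sox11 (208 and 277 CPM), Sox12 (25.7 CPM in both), Sox13 (21.5 and 26.0 CPM) and Sox9 (5.67 and 7.42 CPM). Sox13, a SoxD gene, was the 1 of them at least 4-fold higher in endothelial-like than in other classed cells, 6.47-fold in WT and 7.85-fold in KO. That fold was passed by 4.59% of all genes in WT and 4.62% in KO. Sox4 and Sox11, SoxC genes of many progenitors, were lower there than in the other cells. For Sox11 the KO level was higher, with a log2 ratio of 0.41 (0.26 to 0.56).

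Among 23 further ETS genes, 16 had 20 or more UMIs in the endothelial-like cells of both libraries together. Of these, 5 were at least 4-fold higher there in both libraries, where 4.59% of all genes were in WT and 4.62% in KO. They were Elk3, a factor of vessel growth, at 261 CPM in WT against 254 CPM in KO, Ets2 at 111 and 138 CPM, Elf4 at 18.9 and 21.5 CPM, Fev at 3.399 and 2.92 CPM, and Etv2. Elf2 (80.4 and 109 CPM), Elk4 (33.2 and 27.3 CPM) and Elf1 (30.6 and 30.5 CPM) were, with Elk3 and Ets2, the 5 with the most UMIs in WT. Etv2, the regulator that starts the endothelial lineage earlier in development, was the 1 gene of these 16 past 1.5-fold lower, beside 7.51% of all genes. It had 23 UMIs in WT and 3 in KO, a log2 ratio of -3.45 (-5.83 to -1.72). The 23 WT UMIs lay in 3 cells and the 3 KO UMIs also in 3 cells, so the number of cells with a UMI was the same. The interval leaves out the spread between these cells. Ets2 had a ratio of 0.32 (0.11 to 0.53) and Elk3 of -0.04 (-0.18 to 0.11).

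Of 21 endothelial genes known to be bound or driven by these factors, most belonged to the endothelial-like cells, with 19 of 21 at least 4-fold higher in endothelial-like cells in both libraries. Over all genes, 4.59% were past that fold in WT and 4.62% in KO. In KO, 5 of 21 were past 1.5-fold lower and none past 1.5-fold higher, beside 7.51% and 5.25% of all genes, and 12 of 21 were below WT. The median of the 21 ratios was -0.02, beside 0.01 over all genes. The 3 lowest were Hey2, a Notch target of arteries, at 14.4 CPM in WT against 2.92 CPM in KO, with a log2 ratio of -2.30 (-3.42 to -1.30), Gja5, the connexin of arterial endothelium, at -1.02 (-1.52 to -0.53), and Vwf, von Willebrand factor, at -0.95 (-1.16 to -0.74). Hey1 at -0.63 and Clec14a at -0.60, named after their values were seen, are the other two. The 3 highest were Flt1, a VEGF receptor, at 0.44 (0.30 to 0.57), Robo4, a guidance receptor, at 0.41 (0.14 to 0.69), and Eng, a TGF-β co-receptor, at 0.26 (0.12 to 0.41).

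Arterial cells were a smaller share of the KO than of the WT endothelial-like cells, with overlapping intervals, and 5 of the 21 targets (Gja5, Gja4, Dll4, Hey1 and Efnb2) are markers of the arterial gate. Within arterial cells, a set defined by Gja5 and Hey1 among others, Gja5 had a ratio of -0.39 (-0.89 to 0.10) and Hey1 of -0.13 (-0.52 to 0.25), while Hey2 had -1.57 (-2.69 to -0.56), from 36 WT and 11 KO UMIs. Vwf stood at 345 CPM in the arterial cells of WT and 343 CPM in those of KO, a ratio of -0.01 (-0.28 to 0.26), and at 99.6 and 32.7 CPM in venous cells, a ratio of -1.61 (-1.97 to -1.25). Clec14a, a lectin of endothelium, had -0.57 (-0.99 to -0.15) in arterial and -0.59 (-0.82 to -0.36) in venous cells. Flt1 was higher in KO in both, by 0.38 (0.15 to 0.61) and 0.61 (0.44 to 0.79).

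Of 11 partner genes, factors that work with SoxF or ETS proteins in endothelium and blood, 10 had 20 or more UMIs. Of these, 1 was past 1.5-fold lower, beside 7.51% of all genes. This was Foxc2, of lymphatic valves, at -0.68 (-1.23 to -0.14), followed by Prox1 at -0.42 (-0.78 to -0.06) and Lyl1, a bHLH factor of blood, at -0.24 (-0.68 to 0.21). The 3 highest were Tal1, a master factor of blood formation, at 0.44 (-0.02 to 0.91), Hhex at 0.24 (-0.05 to 0.53) and Nr2f2, the venous regulator COUP-TFII, at 0.21 (0.04 to 0.39). The median ratio of the partners was -0.01.

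**Figure D5:**
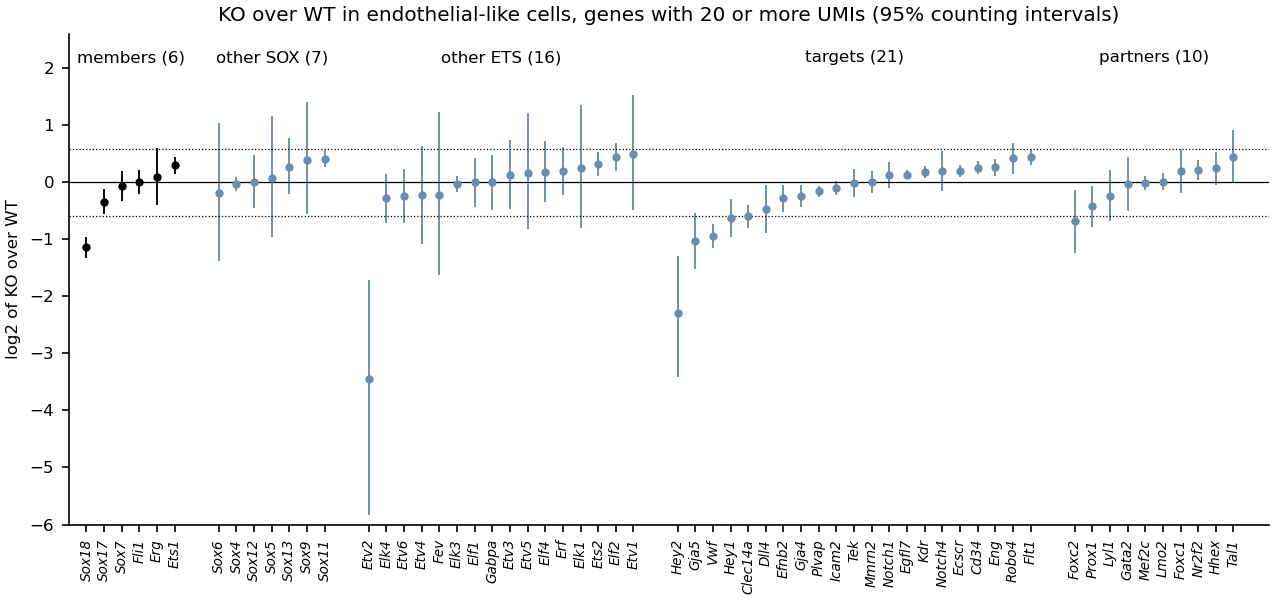
Log2 of KO over WT in endothelial-like cells for the 6 members (black) and, in blue, the other SOX and ETS genes, the targets and the partners with 20 or more UMIs, ordered within each list, with 95% counting intervals; dotted lines mark 1.5-fold. Sox18 is at -1.14, while most values of the other lists lie between the dotted lines, with Etv2 at -3.45 and Hey2 at -2.30 below them. The Etv2 UMIs lay in 3 cells of each library.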

How the data were processed

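Single cells of the AGM were sequenced by 10x Chromium, 1 library per genotype. The authors deposited UMI counts per gene and barcode, unfiltered, made with Cell Ranger 3.1.0 against mm10 (GRCm38), per the labels. Barcodes with 2000 or more UMIs and under 10% mitochondrial UMIs were kept. A cell joined a class when at least 3 of the markers of that class (2 for skeletal muscle) had a UMI and summed to 200 CPM or more (500 for endothelium, sclerotome and other mesenchyme, 1000 for mural cells), limits set from the marker UMIs alone after the tables had been opened. Other mesenchyme gave way to the Schwann precursor, neuron, skeletal muscle, epithelium, coelomic, sclerotome and mural classes where no endothelial or blood gate was passed. Other white blood cells gave way to macrophages and megakaryocytes. Barcodes still in several classes were left out of the classes as possible doublets, except where named, and no doublet caller was run. UMIs were summed per class and given as CPM with exact Poisson 95% intervals, ratios with exact conditional binomial intervals and shares with exact Clopper-Pearson intervals, all for counting error only. Where none was counted, 3 UMIs served as the floor. Genes needed 20 UMIs to enter the background counts, and 200 for the likeness, on log2(CPM + 1), from which the class markers were left out. Cells are not replicates and no test was made. The 3′ counts were not scaled by gene length. Levels were not compared between genes, apart from the order of UMIs that chose which family genes were named.

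The genes named beside the members were, by rule, the 5 of each family with the most UMIs in endothelial-like cells and those 4-fold higher there, the 3 largest increases and decreases among targets and partners, and the 3 genes most alike each member. The members and lists were chosen with earlier results of these data known. The alternatives were other UMI, mitochondrial and gate limits, thinning of each cell to 2000 UMIs, means per cell, other scalings, subtraction of free RNA and subsets of cells. Positions are those of GENCODE M21 (GRCm38). The code for the ratios was checked on simulated counts with known folds. Python 3.11.15 with numpy 2.4.6, scipy 1.17.1, pandas 2.3.3 and matplotlib 3.10.9, and R 4.3.3 with edgeR 4.0.16 for the TMM factors, were used.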

Additional observations from a re-analysis of the deposited data

Results flagged for a closer look

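Fli1 and Ets1 stood out because their differences between KO and WT pointed in opposite directions in different cell classes, with intervals that leave out 0. For Fli1 the log2 ratio of KO over WT was -0.80 in Schwann precursor-like cells and -1.14 in skeletal muscle-like cells, and 0.15 in other mesenchyme. For Ets1 it was 0.29 in endothelial-like cells, 0.28 in Schwann precursor-like cells and 0.25 in other mesenchyme, and -1.44 in neuron-like cells and -0.69 in skeletal muscle-like cells. The differences between classes were not tested, as each genotype has 1 library, and the intervals cover counting error only. Neuron-like cells had a median of 18744 UMIs in WT and 8511 in KO, and the part of depth in the Ets1 ratio was not tested.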

How the results depend on the processing

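Under 14 other ways of processing and 1 chosen after the data were seen (barcodes found in both libraries left out), the Sox18 log2 ratio of KO over WT ran from -1.41 (cells without a Kit UMI) to -0.73 (cells thinned to 2000 UMIs), and that of Sox17 from -0.54 to -0.14, below 0 in all 15. Removal of KO cells with a Pdgfrb UMI, 1 of the 14, could change no ratio, since no KO endothelial-like cell had one. Ets1 ran from 0.15 to 0.90 and was above 0 in all 15, Fli1 from -0.14 to 0.28, Sox7 from -1.95 to 0.72 and Erg from -0.34 to 2.37. The lowest Sox7 and the highest Erg value came from thinning. Its 1 random draw left 20 and 5 Sox7 UMIs and 1 and 5 Erg UMIs in WT and KO. Thinning also gave 2 members past 1.5-fold lower in KO in place of 1, adding Sox7. The median ratio of the members was 0.35 with a mitochondrial share under 5% and -0.32 without a Kit UMI, and the cause was not tested. The members 4-fold higher in endothelial-like cells numbered 5 to 6 in each library. The shares of all genes past this fold, or past 1.5-fold lower, were not counted under the alternatives. The ratios of Sox7, Erg and Fli1 and the median of the members, near 0 as reported, took both signs. Of 147 values of 11 results, 133 stayed within the counting interval or 1.5 times the count reported, and 14 did not. For the median of the members, which has no counting interval, the limit was set from the widths of the members' intervals. A change from 6 to 5 members 4-fold higher falls within the limit for counts. The 133 include the ratios with KO Pdgfrb cells removed, which could not move. With TMM and with median-of-ratios scaling Sox18 had a ratio of -1.13 and Ets1 of 0.30. Ets1 in the KO cells of 2000 to 10000 UMIs fell from 511 to 232 CPM without the 2 cells that held most of its UMIs, also chosen after the data were seen. No paired analysis was possible because each genotype has 1 library, and for the same reason no replicate could be left out. With 84 and 81 endothelial-like cells, Erg, at 58 and 88 UMIs, is the member whose ratio depth limits most.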
